A study of Mus musculus with 6 samples.

Results

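Erythroid transcription factors in the Lin-cKit+ cells of the fetal liver (FL) were followed in 9 genes, chosen by symbol for their known roles. The genes were *Gata1*, *Klf1*, *Nfe2*, *Foxo3*, *Gfi1b*, *Klf3*, *Zfpm1*, *Ldb1* and *Cbfa2t3*, each found by its symbol among the 38293 genes counted. All 9 were expressed well above the filter on low counts, with between 2503 and 42704 reads in every library. RNA was sequenced from 6 C57BL/6 embryos at embryonic day 14.5, with 3 embryos of each genotype. The wt embryos are labelled wild-type for hnRNP L, and the paper draws them as floxed and without Cre. The hnRNP L deficient embryos were VavCre+ hnRNP L fl/fl, so that Cre under the *Vav* promoter removes floxed *Hnrnpl* in blood-forming cells, and cells that escaped deletion may remain in the sort. The sources used here do not give the number of cells or whether embryos shared a litter.

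GATA1 and KLF1 are the DNA-binding activators that switch on globin, heme and red cell membrane genes as progenitors commit to the erythroid fate. GATA1 acts with its partner FOG1, encoded by *Zfpm1*, and in a larger complex that LDB1 holds together with TAL1 and LMO2 and that ETO2, the product of *Cbfa2t3*, restrains. NF-E2 binds the globin control regions with small MAF proteins, GFI1B and KLF3 act mainly as repressors, and FOXO3 drives antioxidant and late maturation genes. The FL is the main site of red cell formation at this stage, so that c-Kit-positive progenitors on the erythroid path make up much of such a sort.

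Library depth was between 55952160 and 76157226 reads on genes, so that counting error was small for every member and the spread between embryos limited the comparison. *Hnrnpl* itself stood at 552, 531 and 528 CPM, that is, reads scaled to the library size, in wt replicates 1 to 3 and at 242, 288 and 270 CPM in hnRNP L deficient embryos 1 to 3. The 10 listed erythroid markers summed to between 3607 and 4615 CPM in wt and between 3623 and 4269 CPM in hnRNP L deficient libraries. By edgeR 1 rose (10%, beside 9.32% of all genes) and 2 fell (20%, beside 9.85%). The largest change was in *Aqp1*, from 268, 263 and 427 CPM in wt to 91.0, 109 and 80.9 CPM in hnRNP L deficient embryos (log2 fold change -1.77). *Kit*, the marker of the sort, lay at 325 CPM or more in each library. Erythroid and progenitor RNA was thus present in all 6 libraries. A tissue label names the whole embryo, but the source label names FL cells. Wt replicate 2 stood apart: its 8 granulocyte markers summed to 8999 CPM, against 562 and 1469 CPM in the other wt libraries and 240 to 1085 CPM in the hnRNP L deficient ones, and 0 of the 8 passed the test. The fitted changes of the members are given with and without it. Ratios, correlations and measures of spread were computed with it included only. In bulk RNA, fewer cells of a type and less RNA per cell cannot be told apart.

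Promoter sequences are shown for the 4 members with the smallest adjusted p-values, since motifs of the members themselves can be read in them. They are RefSeq promoters (GRCm38.p6), 5′ to 3′ on the gene's strand, cut where an exon annotated in GENCODE M21 begins. Capitals mark GATAA, the core of a GATA1 site, and CACCC, the core of a KLF1 or KLF3 site, each searched on both strands, so that TTATC and GGGTG count as well. The sequences of *Gata1* (chrX:7967911-7968160, minus strand), *Klf1* (chr8:84901732-84901927, plus strand), *Cbfa2t3* (chr8:122699110-122699359, minus strand) and *Foxo3* (chr10:42276756-42276945, minus strand) were as follows.
Gata1: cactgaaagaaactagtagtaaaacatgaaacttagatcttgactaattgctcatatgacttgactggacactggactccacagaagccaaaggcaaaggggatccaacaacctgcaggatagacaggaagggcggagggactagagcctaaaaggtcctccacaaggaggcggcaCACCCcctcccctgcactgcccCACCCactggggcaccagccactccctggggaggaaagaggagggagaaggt
Klf1: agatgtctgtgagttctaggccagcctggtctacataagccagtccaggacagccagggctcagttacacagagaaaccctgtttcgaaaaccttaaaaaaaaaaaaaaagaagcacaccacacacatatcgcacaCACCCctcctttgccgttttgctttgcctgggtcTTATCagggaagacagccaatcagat
Cbfa2t3: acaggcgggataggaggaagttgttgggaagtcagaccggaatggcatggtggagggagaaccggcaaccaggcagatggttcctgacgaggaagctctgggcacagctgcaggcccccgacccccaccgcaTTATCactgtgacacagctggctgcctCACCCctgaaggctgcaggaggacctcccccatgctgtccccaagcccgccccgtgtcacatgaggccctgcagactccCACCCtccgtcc
Foxo3: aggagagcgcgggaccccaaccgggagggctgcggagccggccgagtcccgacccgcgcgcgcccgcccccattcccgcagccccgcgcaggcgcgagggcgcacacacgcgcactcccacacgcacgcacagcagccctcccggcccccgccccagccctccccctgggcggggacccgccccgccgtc

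The window of *Gata1* held 2 CACCC boxes and no GATAA, and it lies inside the annotated gene but in no exon. *Klf1* held 1 CACCC box and a GATAA that ends 75 bases before the RefSeq start. *Cbfa2t3* held 2 CACCC boxes and a GATAA that ends 113 bases before its start. *Foxo3* held neither, and 76.4% of its full 250 bases were G or C, against a median of 52.4% over all promoters. RefSeq starts were found for 8 of the 9 members, 11 starts in all. Over the 250 bases before each start, GATAA was present at 4 of 11 starts (22.6% of 32851 promoters), CACCC at 10 of 11 (52.0%), with *Foxo3* as the exception, and the E-box CANNTG, the core bound by TAL1, at 7 of 11 (66.2%). A match of letters is a description of the window and not a bound site.

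The first question was whether the level of any member differed between the genotypes. *Gata1* (chrX:7959260-7978071, minus strand; positions are from GENCODE M21 on GRCm38), the master regulator of the erythroid lineage, stood at 251, 181 and 248 CPM in wt replicates 1 to 3 and at 318, 299 and 298 CPM in hnRNP L deficient embryos 1 to 3. The genotypes did not overlap, with the hnRNP L deficient embryos higher, and the lowest of all was wt replicate 2. The means were 227 ± 39.3 and 305 ± 11.6 CPM (SD, n = 3 each). The log2 fold change was 0.43 with a standard error of 0.13 and a 95% interval from 0.12 to 0.74, that is, 1.35-fold, and it missed the threshold of 0.05 by the quasi-likelihood test of edgeR (adjusted p = 0.060). Without wt replicate 2 the difference was smaller but passed, at 0.29 with an edgeR adjusted p of 0.020. It also passed without wt replicate 1, at 0.51, by DESeq2, by limma voom and with no filter on low counts, so that *Gata1* lay at the border of a call.

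*Klf1* (chr8:84901928-84905291, plus strand), the activator of adult beta-globin and of many membrane and cell cycle genes, stood at 329, 238 and 348 CPM in wt and at 393, 377 and 363 CPM in hnRNP L deficient embryos 1 to 3. The genotypes did not overlap here either, but wt replicate 3 came close to the lowest hnRNP L deficient library. The log2 fold change was 0.31, with an interval from -0.03 to 0.65 and an edgeR adjusted p of 0.16, and no alternative moved it past the threshold. Without wt replicate 2 it was 0.16. *Nfe2* (chr15:103248212-103258403, minus strand), the large subunit of NF-E2, was the exception in the order of libraries, with 103, 148 and 132 CPM in wt and 115, 106 and 115 CPM in hnRNP L deficient embryos. Its highest value was that of wt replicate 2, and wt replicate 1 was the lowest of all 6, so that the genotypes overlapped. For *Nfe2* the log2 fold change was -0.19, with an interval from -0.49 to 0.12 and an edgeR adjusted p of 0.33. Without wt replicate 1 it became -0.31 and passed, with an edgeR adjusted p of 0.030, and without wt replicate 2 it was -0.069.

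*Foxo3* (chr10:42181841-42276755, minus strand) was the only member with every hnRNP L deficient library below every wt library. It stood at 150, 146 and 176 CPM in wt and at 139, 134 and 134 CPM in hnRNP L deficient embryos. The gap between the groups was small, 146 against 139 CPM at the nearest. The log2 fold change was -0.21, with a standard error of 0.089, an interval from -0.42 to -0.004 and an edgeR adjusted p of 0.13. It passed without wt replicate 2, at -0.27 with an edgeR adjusted p of 0.043, and by limma voom, while without wt replicate 3 it was -0.12.

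Both DNA-binding repressors overlapped between the groups. *Gfi1b* (chr2:28609450-28621982, minus strand), needed for red cell and platelet precursors, stood at 171, 123 and 197 CPM in wt and at 171, 171 and 167 CPM in hnRNP L deficient embryos. The 3 hnRNP L deficient libraries sat inside the wt range, and the log2 fold change was 0.05 with an interval from -0.32 to 0.42. Without wt replicate 2 it turned to -0.12, and by total counts and limma voom it was also below 0, so that no direction can be given for *Gfi1b*. *Klf3* (chr5:64803388-64832901, plus strand), itself a target of KLF1 and a repressor at the same CACCC boxes, stood at 70.4, 41.7 and 79.6 CPM in wt and at 58.4, 50.5 and 50.9 CPM in hnRNP L deficient embryos. Wt replicate 2 was again the lowest library, and the other wt libraries lay above all hnRNP L deficient ones. Its log2 fold change was -0.26 with an interval from -0.80 to 0.27 and an edgeR adjusted p of 0.43. Without wt replicate 2 it was -0.49 with an edgeR adjusted p of 0.012, and limma voom also passed it, while without wt replicate 3 it was -0.073. The annotation places an antisense gene over *Klf3*, and the strand option of the counting is not given in the sources used here.

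Among the cofactors, *Zfpm1* (chr8:122282141-122337251, plus strand) varied most, with 391, 243 and 474 CPM in wt and 553, 456 and 464 CPM in hnRNP L deficient embryos. Wt replicate 3 lay within the hnRNP L deficient range. The log2 fold change was 0.41, with an interval from -0.14 to 0.96 and an edgeR adjusted p of 0.24. It was 0.18 without wt replicate 2 and 0.63 without wt replicate 3, and did not pass in either case. *Cbfa2t3* (chr8:122625141-122699109, minus strand), the corepressor ETO2, stood at 113, 89.3 and 129 CPM in wt and at 155, 133 and 130.2 CPM in hnRNP L deficient embryos. The genotypes did not overlap, although wt replicate 3 lay just below hnRNP L deficient replicate 3. Its log2 fold change was 0.33, with an interval from -0.004 to 0.67 and an edgeR adjusted p of 0.14, and it was 0.20 without wt replicate 2. *Ldb1* (chr19:46031570-46045214, minus strand), the bridge that brings distant GATA1 sites together, stood at 472, 454 and 588 CPM in wt and at 468, 461 and 453 CPM in hnRNP L deficient embryos. Its log2 fold change was -0.13, with an interval from -0.39 to 0.13 and an edgeR adjusted p of 0.42, and it passed by limma voom alone. It was -0.20 without wt replicate 2 and -0.0044 without wt replicate 3. Annotated genes also overlap *Ldb1* and *Cbfa2t3* on the opposite strand, with the same limit as for *Klf3*.

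**Figure D1:**
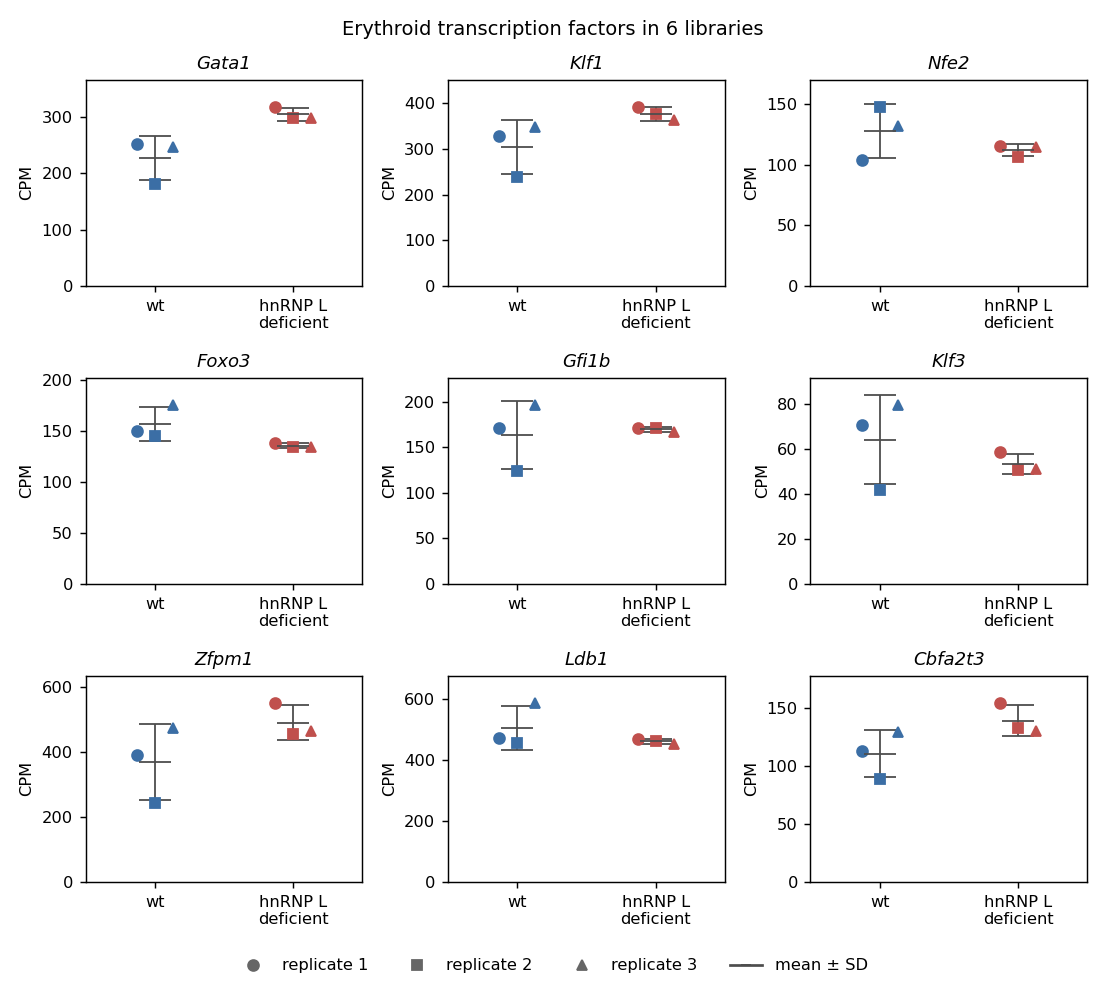
Level of each of the 9 members in CPM (y axis, from 0) in 3 wt and 3 hnRNP L deficient libraries. Points are libraries, with symbols by replicate number, and the bars give the mean ± SD of 3. The hnRNP L deficient libraries of *Gata1* and *Klf1* lie above all wt libraries, those of *Foxo3* lie below, and wt replicate 2 is the lowest wt library in every panel but that of *Nfe2*.

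Thus 0 of 9 members passed the test, where 19.2% of the 14396 genes tested did (9.32% rose and 9.85% fell). Before adjustment, 2 of 9 members had p under 0.05 by edgeR, *Gata1* and *Foxo3*, against 37.6% of all genes. DESeq2 called 1 member, *Gata1*, and limma voom called 4, *Gata1*, *Foxo3*, *Klf3* and *Ldb1*. By edgeR the count was 3 without wt replicate 2 and 2 without wt replicate 1. The groups did not overlap in 4 of 9 members, 3 higher and 1 lower in the hnRNP L deficient libraries, beside 45.5% of all genes. For these 4 the exact two-sided permutation test gave p = 0.1, which is the smallest that 3 libraries against 3 allow. The median log2 fold change of the members was 0.05 and that of all genes tested was -0.03. All 9 intervals lay within a 2-fold change in either direction, with bounds from -0.80 to 0.96 on the log2 scale, and a difference of the size of *Gata1* did not pass at this spread.

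**Figure D2:**
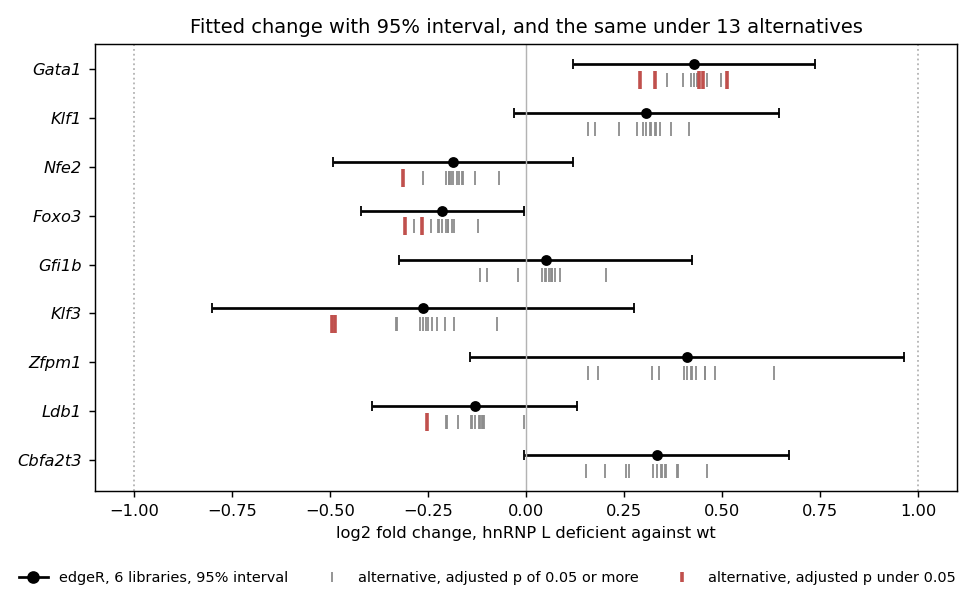
Log2 fold change of each member, hnRNP L deficient against wt (x axis), with black points for the edgeR fit of all 6 libraries and bars for its 95% interval. Short vertical ticks give the 13 alternatives, red where the adjusted p was under 0.05, and the dotted lines mark a 2-fold change. All intervals lie between the dotted lines, and *Klf1*, *Gfi1b*, *Zfpm1* and *Cbfa2t3* have no red tick.

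The spread of the members was unequal in the genotypes. The coefficient of variation over 3 embryos ran from 10.5% to 31.7% in wt and from 1.38% to 11.0% in hnRNP L deficient libraries, and it was larger in wt for 9 of 9 members. The same was seen for 85.0% of the 11619 genes with a mean of at least 1 CPM, with a median of 13.5% in wt and 5.13% in hnRNP L deficient libraries. No coefficient was computed without wt replicate 2, and for *Gata1* the wide spread in wt rests on that library. Wt replicates 1 and 3 of *Gata1* stood at 251 and 248 CPM, closer together than hnRNP L deficient embryos (318, 299 and 298 CPM). For *Foxo3* they stood at 150 and 176 CPM, further apart than hnRNP L deficient embryos (139, 134 and 134 CPM). Wt replicate 2 was the lowest of the wt libraries for 8 of 9 members and the lowest of all 6 libraries for 6 of 9. It was the library with the high granulocyte markers, and it also had the highest macrophage, lymphoid, mast cell and basophil, and endothelial sums. Most of its endothelial sum was *Pecam1* (43.3 CPM). *Cdh5* and *Stab2* were lower there than in the other wt libraries, and *Kdr* and *Lyve1* were not highest there. The part of the RNA of other cells in the low values of wt replicate 2 was not tested.

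Levels can be compared between members only per length. By CPM per kilobase of annotated exon, *Klf1* was the highest member, with 199 in wt and 247 in hnRNP L deficient libraries. It was followed in wt by *Ldb1* (110), *Zfpm1* (105), *Gata1* (93.0) and *Gfi1b* (89.5), and the ranges of neighbours in this order overlapped. *Nfe2* (42.7), *Foxo3* (20.8), *Cbfa2t3* (13.2) and *Klf3* (5.68) came next, each range clear of the next. In the hnRNP L deficient libraries *Zfpm1* (140) and *Gata1* (125) came before *Ldb1* and *Gfi1b* (92.7), and the last 4 kept their places, though the ranges of *Foxo3* and *Cbfa2t3* overlapped there. The lengths are unions of GENCODE exons, and that of *Klf3*, 11243 bases, may hold stretches not used in these cells.

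Ratios of members within a library need no scaling between libraries and show how the balance among the factors differed. They were formed after the values had been seen. *Gata1* over *Gfi1b*, an activator against the repressor it works with, was 1.47, 1.47 and 1.26 in wt and 1.86, 1.75 and 1.79 in hnRNP L deficient embryos. *Klf1* over *Klf3*, rivals for CACCC boxes, was 4.67, 5.69 and 4.37 in wt and 6.72, 7.45 and 7.11 in hnRNP L deficient embryos. *Ldb1* over *Cbfa2t3* was 4.16, 5.08 and 4.54 in wt and 3.02, 3.46 and 3.48 in hnRNP L deficient embryos. In each of these the genotypes were apart, by more than the SD of either. *Klf3* over *Zfpm1* was 0.18, 0.17 and 0.17 in wt and 0.11, 0.11 and 0.11 in hnRNP L deficient embryos, a difference of -0.67 on the log2 scale. *Gata1* over *Foxo3* was 1.67, 1.25 and 1.40 in wt and 2.30, 2.22 and 2.22 in hnRNP L deficient embryos.

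By contrast, *Gata1* over its partner *Zfpm1* was 0.64, 0.75 and 0.52 in wt and 0.58, 0.66 and 0.64 in hnRNP L deficient embryos, and these overlapped. *Klf1* over *Cbfa2t3* overlapped as well. Of all 36 pairs of members, 23 did not overlap between the genotypes, beside 43.7% of all pairs of tested genes. Grouped by the sizes above, *Gata1*, *Klf1*, *Zfpm1* and *Cbfa2t3* against the other 5 members gave 20 pairs, of which 19 did not overlap, with *Klf1* over *Nfe2* as the exception. Among the 4 themselves 1 of 6 pairs did not overlap, and among the other 5 it was 3 of 10. The grouping was read from the same values, and these counts describe it without a test. Pairs share genes and libraries and are not independent, and for a single pair the exact test cannot go below p = 0.1.

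**Figure D3:**
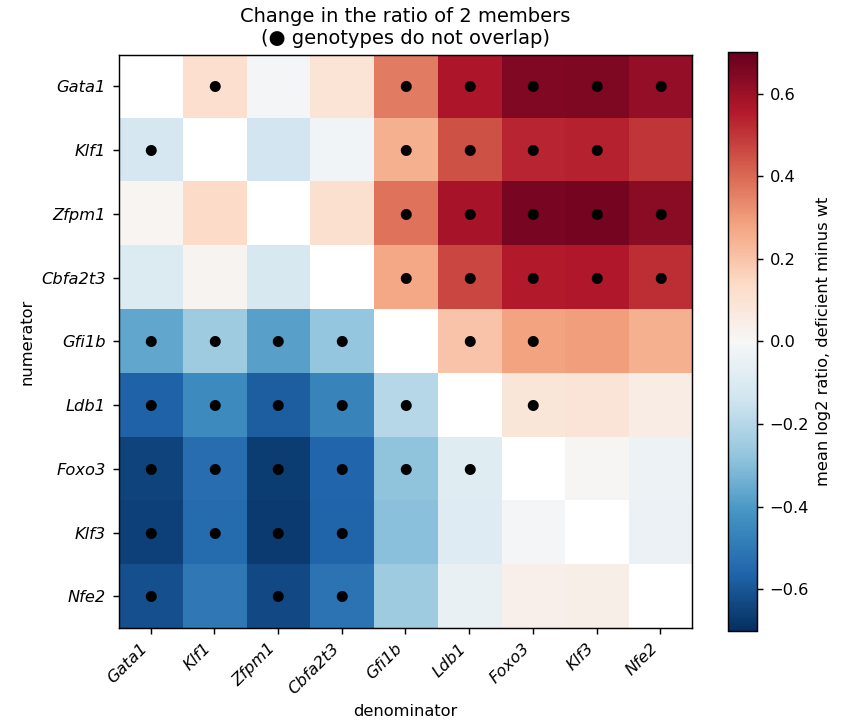
Difference in the mean log2 ratio of each member (row) to each other member (column), hnRNP L deficient minus wt, with red for a higher ratio in the hnRNP L deficient libraries. Dots mark pairs whose genotypes do not overlap. The upper right block holds the 20 pairs of *Gata1*, *Klf1*, *Zfpm1* and *Cbfa2t3* over the other 5 members, of which 19 carry a dot.

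Across the 6 libraries the members of the GATA1 and KLF1 group followed each other. Pearson's r of the log2 levels was 0.97 for *Gata1* and *Klf1*, 0.98 for *Klf1* and *Zfpm1*, 0.98 for *Zfpm1* and *Cbfa2t3* and 0.92 for *Foxo3* and *Ldb1*, and it was -0.75 for *Gata1* and *Nfe2*. *Gfi1b*, outside that group, had r of 0.68 for *Gata1*, 0.83 for *Klf1*, 0.86 for *Zfpm1* and 0.77 for *Cbfa2t3*. Like them it was lowest in wt replicate 2, and apart from that library it did not follow *Gata1*. *Gfi1b* stood at 171 and 197 CPM in wt replicates 1 and 3 and at 171, 171 and 167 CPM in hnRNP L deficient embryos. *Gata1* stood at 251 and 248 CPM and at 318, 299 and 298 CPM. No r was computed without wt replicate 2. These values describe 6 libraries that share 2 genotypes and a wt library that is low in most members. The 5 genes most like *Gata1* were *Rpusd2*, *Gm340*, *Noa1*, *Dlat* and *Eif4ebp2*, with r of 0.998 to 0.999, and those most like *Klf1* were *Phrf1*, *Tnk2*, *Golph3*, *Ubr4* and *Gm14230*, with r of 0.994 to 0.996. *Rpusd2*, for example, stood at 41.1, 23.2 and 39.4 CPM in wt and at 59.4, 53.1 and 55.6 CPM in hnRNP L deficient embryos. Each of these genes also had its lowest value in wt replicate 2.

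The surroundings of the members were read from lists of their partners, paralogs and targets. Of 28 partners and cofactors, 3 rose and 0 fell by edgeR, with a median log2 fold change of 0.11. The share that rose, 10.7%, was near the 9.32% of all genes. The 3 were *Ctbp2* (0.48), a corepressor bound by KLF3 and FOG1, *Mafk* (0.38), a small MAF partner of NF-E2, and *Gatad2a* (0.36), a subunit of the NuRD complex that FOG1 recruits. *Mafk* stood at 61.6, 49.1 and 62.8 CPM in wt and at 75.3, 76.4 and 73.3 CPM in hnRNP L deficient embryos, so that the small subunit was higher in every hnRNP L deficient library while *Nfe2* overlapped. *Tal1*, which joins LDB1 to DNA, had a log2 fold change of 0.30 and an edgeR adjusted p of 0.18, and *Lmo2* had 0.05 and 0.69.

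Of 33 paralogs 24 were expressed enough to be tested, and 0 rose and 3 fell by edgeR, with a median of -0.55. The share that fell, 12.5%, was near the 9.85% of all genes. *Foxo4* fell by 0.66 on the log2 scale, from 44.8, 54.6 and 54.1 CPM in wt to 32.2, 33.6 and 31.5 CPM in hnRNP L deficient embryos. *Bach1*, the heme-sensitive repressor that shares small MAF partners and binding sites with NF-E2, fell by 0.56, and *Klf13* fell by 0.46. *Foxo3* over *Foxo4* was accordingly 3.35, 2.66 and 3.25 in wt and 4.29, 3.98 and 4.26 in hnRNP L deficient embryos. *Gata2*, which GATA1 replaces on chromatin as erythroid cells mature, stood at 41.3, 90.1 and 59.9 CPM in wt and at 44.6, 37.4 and 39.3 CPM in hnRNP L deficient embryos, with an edgeR adjusted p of 0.13. *Gata1* over *Gata2* was 6.08, 2.01 and 4.13 in wt and 7.12, 7.97 and 7.57 in hnRNP L deficient embryos, apart in every library. Both ratios were chosen after the values had been seen, and the exact permutation p was 0.1 for each, the smallest possible.

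Of 29 targets that GATA1 and KLF1 raise in erythroid maturation, 1 rose and 3 fell by edgeR, and the median was -0.09. *Car1*, an early erythroid carbonic anhydrase, rose by 0.88 on the log2 scale, from 36.4, 24.0 and 33.5 CPM in wt to 62.4, 48.5 and 62.5 CPM in hnRNP L deficient embryos. Among the falls were the red cell surface gene *Rhd* (-0.80) and *Uros* (-0.37), which encodes an enzyme of heme synthesis. *Uros* stood at 78.8, 74.0 and 86.3 CPM in wt and at 55.6, 68.6 and 60.4 CPM in hnRNP L deficient embryos. The erythropoietin receptor gene *Epor* (0.06) and the transferrin receptor gene *Tfrc* (-0.05) did not pass and lay near 0. The globin genes did not pass either, and their reads are uncertain, since near-identical copies share reads that were not counted. The share of this list that fell, 10.3%, was near the 9.85% of all genes, and the share that rose was 3.45% beside 9.32%.

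Of 14 genes that are lowered as erythroid cells mature, 0 rose and 5 fell by edgeR, which is 35.7% beside 9.85% of all genes, and the median was -1.01. The list was chosen with earlier results of these data known, and the paper reports falls of *Cd34*, *Meis1*, *Runx1*, *Gfi1* and *Spi1* (PU.1). The share is therefore a description and no independent support. *Cd34*, a progenitor surface protein, fell by 2.21 on the log2 scale, from 94.8, 234 and 123 CPM to 28.5, 35.0 and 34.0 CPM. *Erg* (-1.73), *Meis1* (-1.07) and *Runx1* (-0.95), transcription factors of stem and early progenitor cells, and *Kit* (-0.62) fell as well. On the same list *Myc* (0.45, edgeR adjusted p of 0.054) and *Lyl1* (0.13) went the other way and did not pass. *Gfi1* (-2.15, edgeR adjusted p of 0.25) and *Spi1* (-1.97, edgeR adjusted p of 0.14) overlapped between the genotypes and did not pass here. The summed level of 10 stem and progenitor markers, which share genes with this list, ran from 624 to 981 CPM in wt and from 415 to 446 CPM in hnRNP L deficient libraries, and 6 of 10 fell. The part of a different mix of cells in these falls was not tested.

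Of 22 tested targets of FOXO factors, 1 rose and 8 fell by edgeR, which is 36.4% beside 9.85% of all genes, and the median was -0.49. This list, too, was chosen with earlier results of these data known. The largest falls that passed were in *Fbxo32* (-2.15), a muscle atrophy ubiquitin ligase expressed here at less than 2 CPM, *Ccng2* (-2.03), a cyclin of cell cycle exit, *Pink1* (-1.29), a kinase of mitochondrial quality control, and *Insr* (-0.95), the insulin receptor gene. *Insr* stood at 57.8, 68.7 and 61.7 CPM in wt and at 33.1, 32.8 and 31.4 CPM in hnRNP L deficient embryos. *Cat*, the catalase gene, fell by 0.60 and *Sesn1* by 0.75, while *Sod2*, the mitochondrial superoxide dismutase gene, rose by 0.48. Many of these genes have other regulators. *Sesn1* is also a target of p53, and the paper reports many p53 targets as raised in these cells, while *Sesn1* fell. The 3 listed targets that KLF3 represses did not pass, with a median of -0.36.

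The counts of all these lists depended on the libraries. Without wt replicate 3 or without any single hnRNP L deficient library they went to 0 for each list, as edgeR then called at most 15 rises and 2 falls among all genes. Without wt replicate 2, where the granulocyte signal lay, 10 FOXO targets and 8 maturation targets fell. Without wt replicate 1, 6 partners rose, and 9 paralogs and 8 genes lowered in maturation fell. Markers of several other cells were also lower in the hnRNP L deficient libraries: 8 macrophage markers summed to between 24.2 and 139 CPM in wt and 5.76 and 12.6 CPM in hnRNP L deficient libraries (2 fell), and 7 hepatocyte markers to between 116 and 243 CPM and 21.4 and 73.6 CPM (2 fell). Lymphoid markers summed to at most 28.0 CPM (2 of 5 tested fell, beside 9.85% of all genes). *Ebf1* was too low to be tested, at 0.072, 0.43 and 0.069 CPM in wt and at 0 in all hnRNP L deficient libraries. Endothelial markers summed to at most 46.5 CPM (1 of 5 fell) and mast cell and basophil ones to at most 90.1 CPM (0 of 5). Megakaryocyte markers lay between 65.5 and 106 CPM in both genotypes (1 of 7 fell). Apart from the hepatocyte one, each of these sums was highest in wt replicate 2. The part of these cells in the results was not tested.

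**Figure D4:**
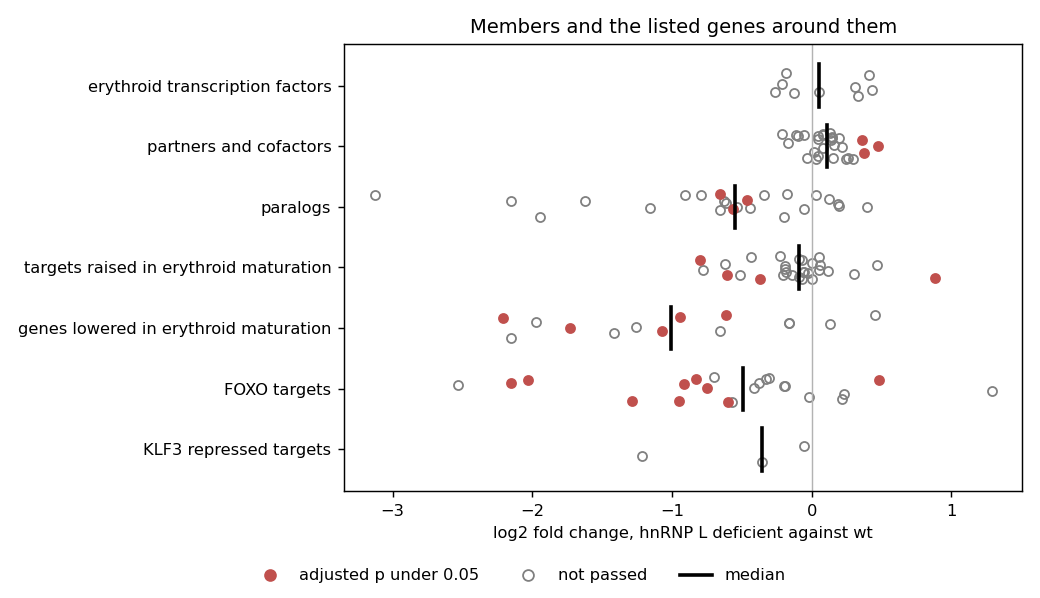
Log2 fold change, hnRNP L deficient against wt (x axis), of the 9 members and of the tested genes of each list (rows). Each circle is a gene, filled red where the edgeR adjusted p was under 0.05, and the black bar is the median. The members have no red circle, while the genes lowered in maturation and the FOXO targets have medians of -1.01 and -0.49.

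hnRNP L is a splicing regulator, and the last question was whether the members' exons were used differently. Exon bins were counted in 5 libraries, 3 wt and 2 hnRNP L deficient, while those of replicate 1 of the latter were not analysed here. The members had 141 bins, of which 122 had enough reads, with a median of 1032 reads. Of these 0 passed by edgeR's test of exon usage, beside 0.0288% of all 176996 bins, and 2 had p under 0.05 before adjustment, beside 1.03% of all bins. No bin of *Gata1*, *Klf1*, *Gfi1b*, *Klf3*, *Zfpm1*, *Ldb1* or *Cbfa2t3* was among them.

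Bin 6 of *Foxo3*, a little used bin, held 26, 38 and 56 reads in wt replicates 1 to 3 and 139 and 143 reads in hnRNP L deficient embryos 2 and 3. As a share of all bin reads of *Foxo3*, this was 0.279%, 0.404% and 0.391% in wt and 1.43% and 1.26% in hnRNP L deficient libraries. The genotypes did not overlap in this bin, nor in bins 1, 4 and 9, whose unadjusted p by edgeR was 0.56, 0.43 and 0.19. The share of all bins without overlap was not counted, and shares of bins within a gene depend on each other. Bin 9, the next one tested, held 5.38% to 8.65% in wt and 8.90% and 9.46% in hnRNP L deficient libraries. For bin 6 the log2 change in usage was 1.89. The edgeR adjusted p of bin 6 was 0.36 over all bins, and its unadjusted p was 0.00023. Without wt replicate 2 the adjusted p was 0.023, so that the call depends on that library. The position of the bin was not given with the counts, and it remains a small share of the gene's reads. Bin 3 of *Nfe2* had a log2 change in usage of -0.77 with an unadjusted edgeR p of 0.042 and did not pass.

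**Figure D5:**
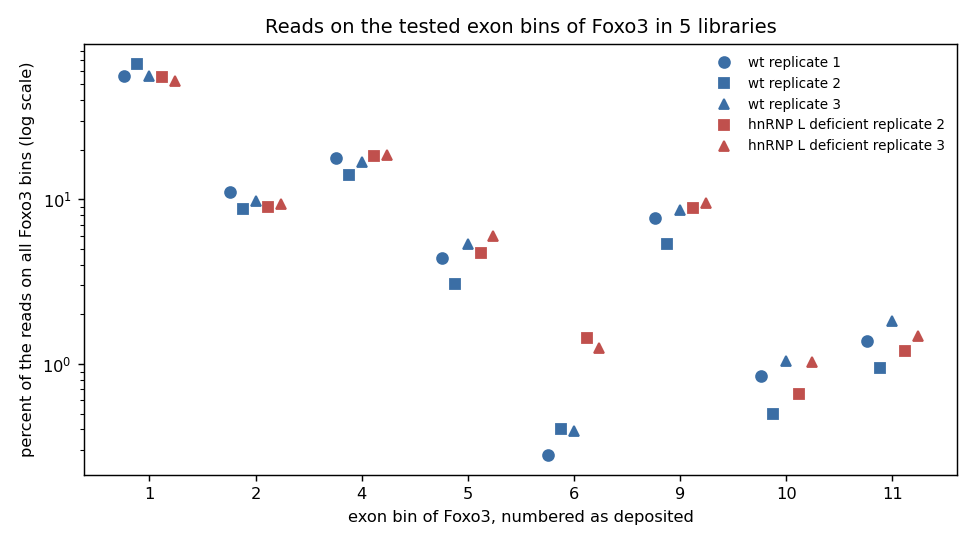
Share of the *Foxo3* bin reads (y axis, percent, log scale) on each of the 8 tested bins (x axis, numbered as deposited) in 3 wt libraries (blue) and 2 hnRNP L deficient libraries (red). Bin 6 lies at 0.279% to 0.404% in wt and at 1.26% and 1.43% in hnRNP L deficient libraries. Bins 1, 4 and 9 also do not overlap, with smaller gaps on this scale, and shares of bins within a gene depend on each other.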

How the data were processed

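RNA-seq of sorted Lin-cKit+ FL cells gave gene counts of 6 libraries and exon bin counts of 5. The authors deposited raw counts per Ensembl gene and per exon bin, without normalization. The submitters' processing notes name TopHat2 2.0.10, SAMtools, HTSeq and DESeq, and GRCm38. The annotation release and the strand option are not given in the sources used here. Reads on no gene, mostly reads without a unique position, were 46.7% to 53.3% of a library and were left out.

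The test of gene counts was that of edgeR 4.0.16 (R 4.3.3, TMM factors, default expression filter, robust quasi-likelihood test of genotype, Benjamini-Hochberg over 14396 genes, threshold 0.05). CPM are counts scaled to the normalized library size, and 3 reads were at most 0.0536 CPM. The 95% intervals are the standard error times the t quantile of the fit. Exact permutation tests used log2(CPM + 0.1). Exon usage was tested with diffSpliceDGE where the mean count of a bin was 10 or more. Symbols were matched for 94.9% of genes, and *Ahsp* was not matched. The steps were tested on simulated data. Replicate numbers follow the order of the samples. The labels call each library a separate embryo.

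The members and lists were chosen with earlier results of these data known. Genes named are the members, *Hnrnpl*, in each list up to 4 rises and 4 falls that passed without overlap (a named gene of the maturation list is not reported here), and the 5 genes most correlated with *Gata1* and with *Klf1*. *Kit*, *Myc*, *Lyl1*, *Cat*, *Sesn1*, *Tal1*, *Lmo2*, *Gata2*, *Epor*, *Tfrc* and *Ebf1* were added after their values were seen. The same holds for *Gfi1*, *Spi1*, *Aqp1*, *Pecam1*, *Cdh5*, *Stab2*, *Kdr* and *Lyve1*. Alternatives were DESeq2 1.42.0, limma 3.58.1 voom with sample weights, other scalings and filters, and leaving out each library.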

Additional observations from a re-analysis of the deposited data

How the results depend on the processing

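Of the 9 members, *Klf1*, *Zfpm1* and *Cbfa2t3* kept their direction and stayed short of the threshold under all 13 alternatives, with 0.16 to 0.41, 0.18 to 0.63 and 0.20 to 0.46 on leaving out each library. *Gata1* kept its direction in all and passed by DESeq2 (0.44), without a filter (0.45) and by limma voom (0.33), with 0.29 to 0.51 on leaving out each library. Limma voom also passed *Foxo3* (-0.31), *Klf3* (-0.49) and *Ldb1* (-0.25). Leaving out each library gave -0.27 to -0.12 for *Foxo3*, -0.49 to -0.073 for *Klf3* and -0.31 to -0.069 for *Nfe2* and -0.20 to -0.0044 for *Ldb1*. *Gfi1b* reversed by total counts (-0.020), by limma voom (-0.10) and without wt replicate 2, within a range of -0.12 to 0.20 on leaving out each library. Members called were 1 by DESeq2, 1 without a filter, 4 by limma voom and 0 to 3 on leaving out each library.

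Over all genes, 1341 rose and 1418 fell. DESeq2 called 2227 falls, and limma voom 2537 rises and 2751 falls. Leaving out each library gave 5 to 2312 rises and 0 to 2479 falls. Leaving out each library gave, for partners, 0 to 6 rises and 0 to 2 falls, for paralogs 0 to 1 and 0 to 9, for maturation targets 0 to 1 and 0 to 8, for genes lowered in maturation 0 to 1 and 0 to 8, and for FOXO targets 0 to 2 and 0 to 10. Falls of partners were 1 by total counts and 1 by limma voom. Falls of paralogs were 9 by DESeq2, 6 by total counts, 5 with a mean count of at least 50 and 10 by limma voom, and DESeq2, no filter and limma voom each gave 1 rise. Falls of maturation targets were 5 by DESeq2 and 6 by limma voom. Of genes lowered in maturation, DESeq2, no filter and limma voom each gave 1 rise. Limma voom gave 2 rises of FOXO targets and 1 fall of a KLF3 target. The causes were not tested. Exon bins called were 0 to 1 on leaving out each library, and the usage change of *Foxo3* bin 6 was 1.75 to 1.99. The exact tests were the same with log2(CPM + 1).

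No paired analysis was possible because the replicate numbers only follow the order of the samples. With 3 embryos a group the spread between embryos, not depth, limited the precision.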

Other observations

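Wt replicate 1 and hnRNP L deficient replicate 1 share the first part of their embryo number, whose meaning the labels do not give. Between these 2 libraries, compared after the values had been seen and without a test, the log2 ratio of hnRNP L deficient to wt was 0.50 for *Zfpm1*, 0.45 for *Cbfa2t3*, 0.34 for *Gata1* and 0.26 for *Klf1*. It was 0.16 for *Nfe2*, -0.00070 for *Gfi1b*, -0.01 for *Ldb1*, -0.12 for *Foxo3* and -0.27 for *Klf3*. For *Nfe2* and *Gfi1b* this pair differed in sign from the comparison of all 6 libraries.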
